A study of Sus scrofa with 16 samples.

Results

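The interaction of breed and elevation in heart DNA methylation was examined by comparing pigs raised at the home elevation of their breed with pigs raised away from it. All 16 animals of the series entered this comparison, 8 on each side. The home side held 4 Tibetan highland pigs (TH) and 4 Yorkshire lowland pigs (YL), and the away side held 4 Yorkshire highland pigs (YH) and 4 Tibetan lowland pigs (TL). The animals were castrated boars of 6 months of age, raised in Linzhi (highland) or Beijing (lowland). Away animals had not themselves been moved, since they were conceived and born where they were raised, in populations that had been brought there and bred. Feeding was the same for the breeds at an elevation but may have differed between elevations, so elevation here includes everything that differed between the farms. Whether a group drew on few litters or on its own library batch is not given in the sources used here, and such a difference between groups cannot be told apart from the interaction.

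Methyl groups on cytosine, most of them next to a guanine, are a mark on DNA that takes part in gene silencing and in keeping the identity of a cell type. In methylated DNA immunoprecipitation sequencing (MeDIP-seq), sheared DNA is captured with an antibody against methylated cytosine, and regions with many captured reads are called as peaks. An interaction means that the difference between highland and lowland animals was not the same in the 2 breeds. On the scale used here, it equals the number of home animals minus the number of away animals with a peak. Heart tissue is of interest for elevation because cardiac muscle depends on a steady supply of oxygen, to which cells respond through the hypoxia-inducible factor (HIF-1) pathway.

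The deposited data were 4 lists of peaks, 1 per group, with positions on Sscrofa10.2. Each of chromosomes 1 to 18 was divided into windows of 500 bp, and the peaks of a list over base 250 of the window were counted. At most 4 peaks of a list lay over a counted base, which is the number of animals in a group, so each counted peak was taken to stand for 1 animal. In total, 620135 windows had a peak in at least 1 animal. Fisher's exact test (2-sided) of 8 against 8 animals can fall under 0.05 only when 5 to 11 of the 16 animals have a peak, which left 155695 windows to test. A window is named called below when its exact p was under 0.05 without adjustment.

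The home lists held more peaks than the away lists. Over all sequences, there were 280678 peaks in TH and 332078 in YL, against 287224 in YH and 259066 in TL, so that the home side had 1.12 times the peaks of the away side. The reads counted in peaks (tags) summed to 10.5 M in TH, 13.9 M in YL, 11.3 M in YH and 8.64 M in TL, 1.22 times as many at home as away. YL was the highest and TL the lowest of the 4 groups in both measures, while TH lay below YH. The sums of counts over all windows were 1396573 at home and 1206616 away, a ratio of 1.16.

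Of the 155695 tested windows, 4303 were called between home and away animals, or 2.76%. More home than away animals had a peak in 3114 of them (2.0% of the tested windows), and more away than home animals in 1189 (0.764%). The home side therefore held 72.4% of the called windows (95% Wilson confidence interval 71.0–73.7%, counting error only). If all 16 animals were interchangeable, the numbers of animals in the windows would give 3463 called windows on average, so that the observed number was 1.24 times this mean (exact Poisson interval 1.21–1.28, with neighbouring windows counted as if separate). No window passed Benjamini-Hochberg adjustment over the tested windows, where the smallest adjusted p of Fisher's exact test was 1, and 435 windows had an unadjusted p under 0.01. The calls below thus describe a set of windows, and no single window among them is established as different.

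The sides departed from the mean in opposite directions. A difference of 5 animals in favour of home was found in 2624 windows, 1.82 times the mean of 1443, and the same difference in favour of away in 973 windows, 0.674 times that mean. Differences of 6 gave 453 windows at home and 205 away, against a mean of 257 on either side. Even a difference of 1 animal was more frequent at home (34376 windows) than away (27061 windows). With each list reduced to the same number of peaks by tags, 2439 windows were called on the home side and 1635 on the away side, which were 1.5 and 1.01 times the mean per side. The home share was then 59.9%, while the sum of window counts was still 1.09 times as large at home as away, so the larger number of home peaks moved with the direction of the calls, and its full part in the direction was not tested.

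**Figure D1:**
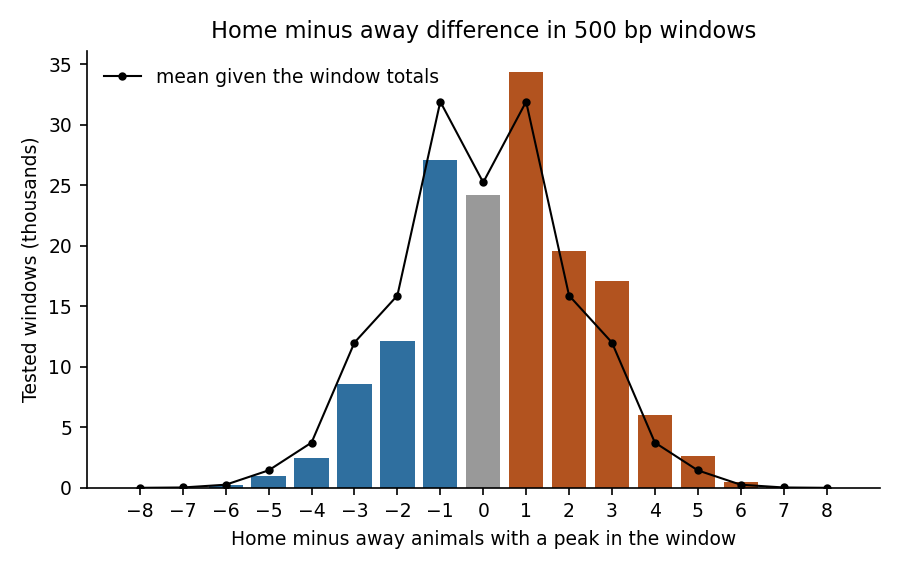
Bars give the number of tested 500 bp windows (vertical axis, in units of 1000) at each difference between home and away animals with a peak, with home higher in orange, away higher in blue and no difference in grey. The black points are the mean given the number of animals with a peak in each window, and the bars lie above it at each difference from 1 to 8 and below it at each difference from -1 to -8.

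The excess was found in windows with few animals. With a peak in 5 of the 16 animals, 1436 windows were called, 1.57 times their mean, and 1112 of these were higher at home. The ratio was 1.49 with 6 animals, 1.29 with 7, 1.32 with 8 and 0.979 with 9. With 11 animals it was 0.750, and the calls were then almost evenly split, with 128 windows higher at home and 132 higher away.

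The same exact test over the same windows gave the scale for this interaction. Between the breeds, 11264 windows were called (7.23%), 3.25 times the mean, of which 1550 had more Tibetan and 9714 more Yorkshire animals with a peak (smallest adjusted p 0.255). Between the elevations, 2526 windows were called (1.62%), 0.730 times the mean, with 975 higher at high and 1551 higher at low elevation. The home and away calls thus lay between those of breed and elevation in number. The 3 contrasts shared no called window, because a difference of 5 or more animals in 1 of them leaves no room for such a difference in another. Since breed alone separated many windows, the 16 animals were not interchangeable, and the mean given the total is a reference value rather than a model of these data.

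Further exact tests held the breed differences fixed. Given the Tibetan and the Yorkshire total of each window, a test added after the data were seen, 4583 of 141225 windows were called between home and away (3.25%), against 2806 between the elevations (1.99%). Both contrasts have the same mean under this test, and the observed numbers were 1.37 and 0.839 times that mean. Given both the breed and the elevation totals (Zelen's exact test of equal odds ratios), 2931 of 78204 windows were called for the interaction (3.75%), 1.38 times the mean. Each of these was also called by Fisher's exact test, which follows from the 4 animals per group. They are a subset of the Fisher calls and no separate evidence. The home share of this subset was 71.9%. After adjustment, the smallest p of these tests was 1 as well.

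**Figure D2:**
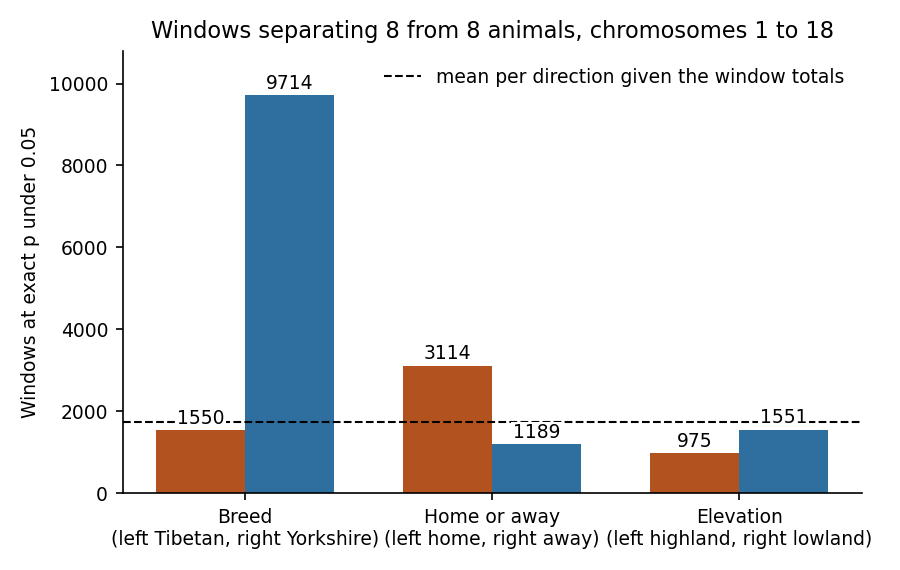
Bars give the number of windows at exact p under 0.05 in each direction for 3 contrasts of 8 against 8 animals, and the dashed line is the mean per direction given the window totals. The 3114 windows higher at home lie above the line and the 1189 higher away below it, while the 9714 windows with more Yorkshire animals are the largest number.

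Both breeds contributed to each call, which follows from the threshold, because 1 breed with 4 against 4 animals cannot reach a difference of 5. The contribution was at least 2 animals in each breed in 2711 of the 3114 home-side windows (87.1%) and in 986 of the 1189 away-side windows (82.9%). Most ways to reach a difference of 5 also have at least 2 animals in each breed. No reference value was computed for these shares, so they are descriptions only. Among home-side windows, TH had a peak in 2.78 animals on average, YL in 3.19, YH in 0.462 and TL in 0.340. Among away-side windows, the means were 3.23 animals in YH, 3.07 in TL, 0.401 in TH and 0.709 in YL. The larger of the 2 breed differences was that of Yorkshire pigs in 1674 home-side windows and that of Tibetan pigs in 1172. On the away side this order turned, with 585 windows for Tibetan and 493 for Yorkshire pigs.

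The most frequent combination was a peak in 2 TH and 3 YL animals and in no away animal, with 566 windows or 18.2% of the home side. A peak in 3 TH and 2 YL animals and in no away animal followed with 393 windows. On the away side, 2 YH and 3 TL animals without any home animal were most frequent, with 137 windows or 11.5%. The other side had no peak at all in 1366 home-side windows (43.9%) and in 408 away-side windows (34.3%). The windows called were therefore mostly ones in which some, but not all, animals of the higher groups had a peak.

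**Figure D3:**
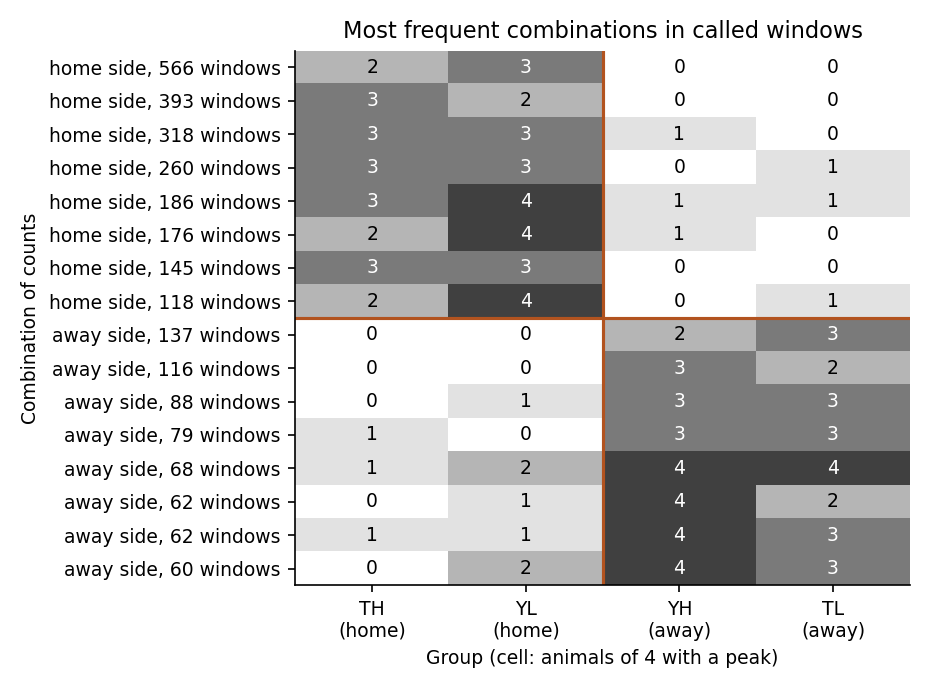
Each row is a combination of counts, with its side and number of called windows on the vertical axis, and each cell gives the number of animals of 4 with a peak in TH, YL, YH or TL. The 8 most frequent combinations of either side are shown, from 566 windows for 2 TH and 3 YL animals down to 60 windows on the away side.

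Joined with adjoining called windows of the same direction, the windows formed 2143 regions on the home side and 849 on the away side, with 1.45 and 1.4 windows per region on average. The longest home-side region held 10 windows on chromosome 4 from 142123001 to 142128000, and in its first window 2 TH and 3 YL animals but no YH or TL animal had a peak (exact p = 0.0256). The longest away-side region held 9 windows on chromosome 7 from 1782501 to 1787000, where 4 YH, 3 TL, 2 YL and 0 TH animals had a peak in the first window (exact p = 0.0406).

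A difference of 7 or 8 animals was found in 48 windows, 37 of them higher at home and 11 higher away. For a difference of 7, the mean given the totals was 29.0 windows on either side. There were 35 such windows at home (1.21 times the mean) and 11 away (0.38 times), so windows of this difference were not in clear excess. In 2 windows, all 8 home animals and no away animal had a peak (exact p = 0.000155, adjusted p = 1), and the reverse was not found. With equal numbers of peaks in the lists, these windows had differences of 7 and 5 animals, and with a minimum of tags per peak, scaled to the depth of the libraries, 7 and 6. The mean given the totals was 1.59 such windows on either side, so that this number was close to the mean. The first of these windows lies on chromosome 6 from 126395501 to 126396000, in a region that starts at 126395001. Its 8 peaks had 14 to 31 tags and a fold enrichment of 8.17 to 11.0 over the background of the peak caller, and no away list had a peak within 2000 bp. The second lies on chromosome 16 from 13248001 to 13248500, in a region that ends at 13249000. Its peaks had 12 to 23 tags and a fold enrichment of 10.4 to 14.5, and within 2000 bp there was 1 TL peak.

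The next home-side regions, ordered by difference and length, reached a difference of 7 animals (exact p = 0.0014 in each), and the counts given are those of the 500 bp window of largest difference in a region. In the windows at 117112501 on chromosome 3 (region to 117114500) and at 19252001 on chromosome 10 (region to 19253500), all TH and YL animals, 1 YH animal and no TL animal had a peak over the counted base. The windows at 41179501 on chromosome 8, at 29531501 and 38205501 on chromosome 7, at 63318001 on chromosome 14 and at 33016001 on chromosome 1 had peaks in 3 TH and 4 YL animals against none. The window at 45955501 on chromosome 6 had peaks in 4 TH and 3 YL animals against none. The surroundings of these regions differed. Within 2000 bp of the window on chromosome 8 there were 3 TH, 4 YL, 1 YH and 0 TL peaks, so that the away lists were nearly empty there. Around the second region of chromosome 6 there were 6 TH, 6 YL, 5 YH and 5 TL peaks, so that all 4 lists had peaks close by.

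Away-side regions reached a difference of 7 animals at most (exact p = 0.0014 in each), again counted in 1 window. With equal numbers of peaks, the window of chromosome 18 at 30942501 reached 8 animals away against 0 at home (exact p = 0.000155). All YH and TL animals, 1 YL animal and no TH animal had a peak on chromosome 4 from 15980501 to 15981000 and on chromosome 18 from 30942501 to 30943000. On chromosome 16 from 78427501 to 78428000, all away animals and 1 TH animal had a peak. Peaks in 4 YH and 3 TL animals and in no home animal were found on chromosome 2 from 61893501 to 61894000 and from 85298001 to 85298500, and on chromosome 13 from 167213001 to 167213500. Peaks in 3 YH and 4 TL animals and in no home animal were found on chromosome 3 from 81418001 to 81418500 and from 102422001 to 102422500, on chromosome 10 from 22344501 to 22345000 and on chromosome 13 from 13635001 to 13635500. Around both windows of chromosome 13, no home list had a peak within 2000 bp. Around the window of chromosome 10, by contrast, there were 3 TH, 4 YL, 4 YH and 4 TL peaks. When peaks over any base of the window were counted, the windows of chromosome 10, of chromosome 16 and the second of chromosome 3 were no longer called, with differences of 3, 4 and 3 animals (exact p = 0.2, 0.0769 and 0.2). With the minimum of tags, the window of chromosome 13 at 167213001 was not called (difference of 4 animals, exact p = 0.0769).

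The medians of tags and fold enrichment of peaks in called windows lay near those of tested windows in general. TH peaks over home-side windows had a median of 29 tags and a fold enrichment of 8.19, against 29 tags and 8.22 over all tested windows. For YL the medians were 33 tags and 7.22, against 33 tags and 7.36. YH peaks over away-side windows had a median of 31 tags and a fold enrichment of 7.17, against 31 and 7.07, and TL peaks 27 tags and 7.72, against 27 and 7.58. Their median length was 1101 bp in TH and 1156 bp in YL on the home side, against 1069 and 1136 bp over the tested windows, and 1114 bp in YH and 1036 bp in TL on the away side, against 1112 and 1018 bp. Single windows could differ from these medians, as the peaks of the second window with 8 against 0 animals had 12 to 23 tags, fewer than the TH and YL medians. Reads below the peak threshold in the other animals could not be seen.

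Home-side calls outnumbered away-side calls on each of the 18 chromosomes. The share of tested windows that were called ran from 2.23% on chromosome 17 (116 windows) to 3.12% on chromosome 13 (287 windows), and the ratio to the mean from 0.985 on chromosome 17 to 1.42 on chromosome 13. Chromosome 13 also had the lowest share of calls on the home side, 65.2%, and chromosome 4 the highest, 79.8%. In the outer 10% at either end of the chromosomes lay 28.5% of the home-side windows (95% Wilson interval 26.9–30.1%) and 27.2% of the away-side windows (24.8–29.9%), against 31.3% of the tested windows. These shares are descriptions, because 1 peak can cover several windows in a row.

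**Figure D4:**
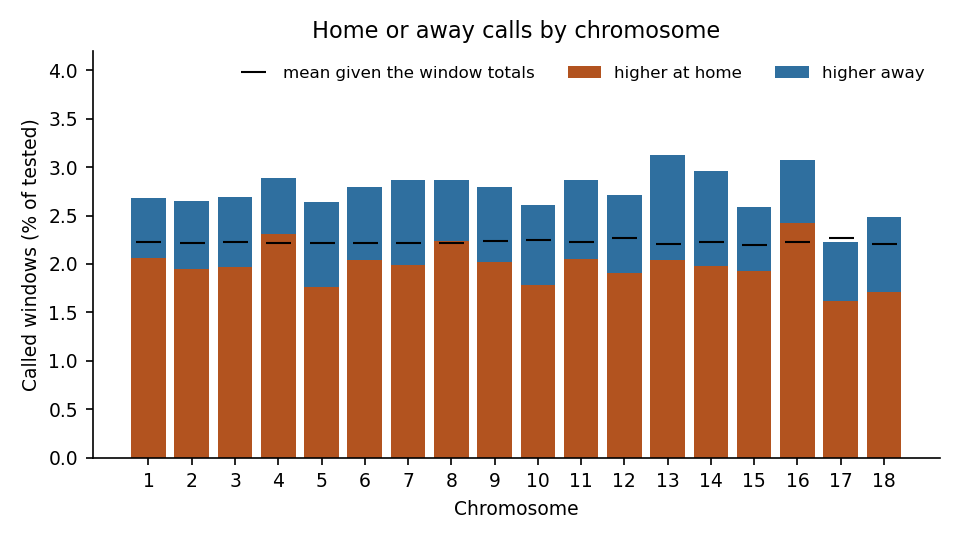
Stacked bars give the called windows of each chromosome as a percentage of its tested windows, with home higher in orange and away higher in blue, and the black dash is the mean given the window totals. The total lies above the dash on each chromosome except 17, and the orange part is the larger one throughout.

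Genes were named through the windows that the study's list of differentially methylated regions pairs with a gene, or by position between such windows of 1 gene. That list was made from these animals, the part used here comes from comparisons of the breeds at either elevation, so its windows are no independent sample of genes. The part used covered chromosomes 1 and 10 to 14 only and is not the whole list, since the paper names differentially methylated genes that are absent from it. It gave 329 windows of 163 genes, of which 74 windows could be tested. Of these 74 windows, 3 were called, 1 higher at home and 2 higher away. Against the 2.76% of all tested windows, 3 of 74 is too few for a comparison. Over all 329 windows, the difference was in favour of home in 119, in favour of away in 64 and 0 in 146, 113 of the windows having no peak over the counted base in any animal. The median difference was 0. Over all 620135 windows with a peak, the median was 0, and the difference was in favour of home in 306775 (49.5%) and in favour of away in 203396. This set holds no window without a peak, unlike the 329 listed windows, so the 2 sets cannot be compared directly.

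Among the genes of growth and hypoxia signalling (22 genes with 42 windows, 9 tested), 1 window was called, in CHUK. CHUK encodes a catalytic subunit of the IκB kinase complex, which releases NF-κB, a transcription factor of inflammation that also responds to low oxygen. In the intronic CHUK window on chromosome 14 from 120810001 to 120810500, a peak was found in 0 TH, 1 YL, 3 YH and 4 TL animals (exact p = 0.0101, adjusted p = 1). Tibetan pigs thus had a peak there at low elevation only, and Yorkshire pigs mostly at high elevation. The neighbouring listed window from 120811001 to 120811500 had peaks in 0 TH, 0 YL, 1 YH and 3 TL animals, a total that is too small for the test to call (exact p = 0.0769). Of the 42 windows of this list, 16 had more home animals, 10 more away animals and 16 no difference, 12 of the 42 having no peak in any animal.

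Among the heart and muscle genes (15 genes with 43 windows, 10 tested), 1 window was called, in SMYD3, a histone methyltransferase expressed in developing muscle. In this intronic window on chromosome 10 from 21131501 to 21132000, 2 TH, 4 YL, 1 YH and 0 TL animals had a peak (exact p = 0.0406, adjusted p = 1). The call was lost when peaks over any base of the window were counted (difference of 3 animals, exact p = 0.315). Of the 43 windows, 15 had more home animals, 2 more away animals and 26 no difference, 18 of the 43 having no peak in any animal. One of the 15 lies behind the transcription end of ITGB1, the β1 integrin that anchors heart muscle cells to their matrix, on chromosome 10 from 61447501 to 61448000. There, 1 TH and 3 YL animals and no away animal had a peak (exact p = 0.0769).

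None of the 12 tested windows among the genes of metabolism and mitochondria (26 genes with 59 windows) was called by Fisher's exact test at an unadjusted p under 0.05. The widest difference of this list was 4 animals, in an intronic window of PARK2 on chromosome 1 from 7504501 to 7505000, with peaks in 3 TH and 1 YL animals and in no away animal (exact p = 0.0769). PARK2 encodes parkin, a ubiquitin ligase that marks damaged mitochondria for removal. Of the 59 windows, 19 had more home animals, 12 more away animals and 28 no difference, 19 of the 59 having no peak in any animal.

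Called windows were also looked up between the outermost listed windows of a gene, which was added after the data were seen. These spans were not checked against a gene annotation, so a window in a span may lie outside the gene that names it. For 62 genes with such a span of at most 1000000 bp, 18 of 690 tested windows were called (2.61%), close to the share over all tested windows. These were 15 home-side and 3 away-side windows in 10 genes. PARK2 held 4 of them, all higher at home, among 139 tested windows over 813 kb. In the adjoining pair on chromosome 1 from 7878501 to 7879500, 3 TH and 3 YL animals and no away animal had a peak (exact p = 0.00699). From 7474501 to 7475000, 4 TH, 4 YL, 1 YH and 2 TL animals had a peak, and from 8220001 to 8220500, 3 TH and 2 YL animals and no away animal (exact p = 0.0256 in each).

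ENG encodes endoglin, a co-receptor of transforming growth factor β on endothelial cells, and 3 of the 8 tested windows in its span were called. They adjoin each other on chromosome 1 from 302245001 to 302246500, with peaks in 2 TH and 3 YL animals and in no away animal (exact p = 0.0256), and thus rest on the same peaks. In MRC1, the mannose receptor of macrophages, 4 TH, 3 YL, 0 YH and 1 TL animals had a peak on chromosome 10 from 48886501 to 48887000 (exact p = 0.0101). LIPC, the hepatic lipase, had a called window on chromosome 1 from 125540501 to 125541000 with peaks in 3 TH and 2 YL animals and none away. PITPNC1, a phosphatidylinositol transfer protein, had one on chromosome 12 from 14301001 to 14301500 with peaks in 2 TH and 3 YL animals and none away (exact p = 0.0256 in both genes). The remaining home-side windows were a second one in the span of SMYD3, with 3 TH and 2 YL animals, and those of 2 further spans. These were 1 window in the span of UBAP1 (765.5 kb) and 2 in that of LOC780417 (371 kb), with 2 TH and 3 YL animals. None of these windows had a peak in an away animal.

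Away-side windows between listed windows were found in CHUK, as above, and in HTR2A, a serotonin receptor that constricts vessels. In HTR2A, 4 YH, 2 TL, 1 YL and 0 TH animals had a peak on chromosome 11 from 20937001 to 20938000 (exact p = 0.0406 in both windows). A further listed window, at the promoter of LOC100512313 on chromosome 13 from 30811501 to 30812000, had peaks in 4 YH, 3 TL, 2 YL and 0 TH animals (exact p = 0.0406). In these called windows of the 3 genes the TH group had no peak, and YH or TL had the most.

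**Figure D5:**
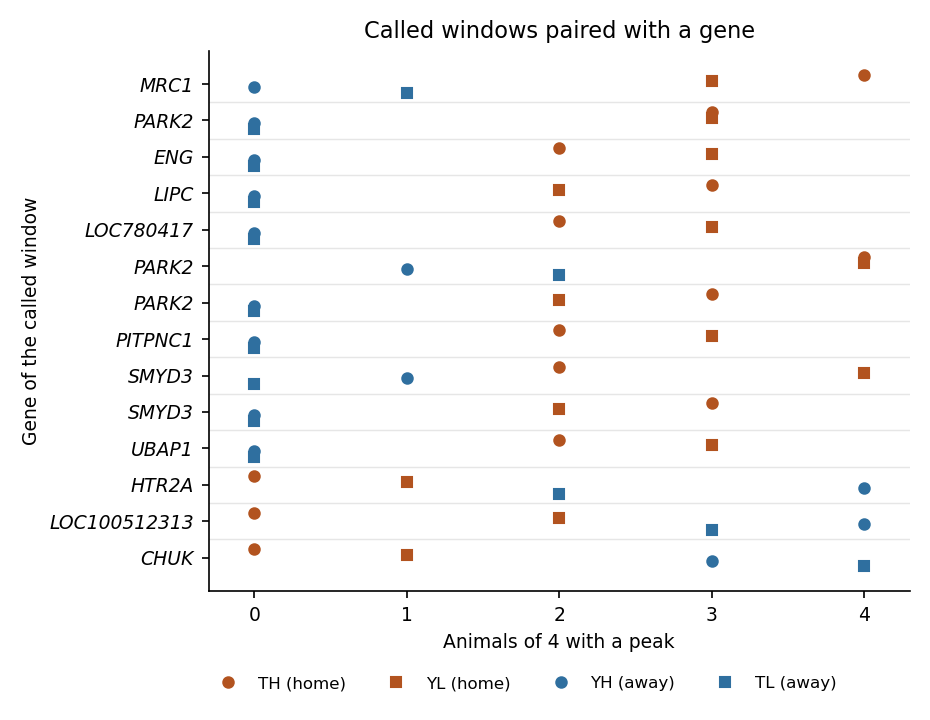
Points give the number of animals of 4 with a peak in called windows paired with a gene or lying between its listed windows. TH (circles) and YL (squares) are in orange for home, and YH (circles) and TL (squares) in blue for away. Windows of a gene with equal counts are drawn once. In CHUK, HTR2A and LOC100512313 the blue points lie to the right of the orange ones, and in the other genes to the left.

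In the part of the list used here, no window of the genes that the study followed up was called by Fisher's exact test at an unadjusted p under 0.05. Several could not be tested, and other genes of the follow-up had no window in this part. FOXO1, a transcription factor of the insulin and AMPK pathways, had promoter peaks on chromosome 11 in Tibetan pigs only, with 2 TH and 4 TL animals from 15691501 to 15692000 and 3 TH and 4 TL animals from 15692001 to 15692500 (exact p = 0.608 and p = 1). SMAD2, a transducer of transforming growth factor β signals, had intronic peaks in 1 TH, 4 YH, 1 TL and 4 YL animals on chromosome 1 from 106962501 to 106963000, a sum of 5 on either side. SMAD2 was thus balanced between home and away, while FOXO1 had 2 and 1 more away than home animals in its windows, which were not called. The intronic IGF1R window on chromosome 1 from 153532001 to 153532500 had peaks in 3 TH and 4 YL against 4 YH and 4 TL animals, too many for the test to call any difference. Its growth factor receptor has a second listed window, from 153677001 to 153677500, in which no animal had a peak.

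BCKDHB, a subunit of the enzyme complex that breaks down branched-chain amino acids, had intronic peaks on chromosome 1 in 5 home animals (2 TH and 3 YL) and 2 away animals (1 YH and 1 TL) from 96711001 to 96711500 (exact p = 0.315). From 96439001 to 96439500 the sums were 6 at home and 5 away, and from 96710001 to 96710500 they were 2 and 1, too few to be tested. In the intronic STAT5B window of chromosome 12 (20749501 to 20750000), there were peaks in 3 home and 2 away animals. The ICA promoter window on chromosome 13 from 82337501 to 82338000 also had 3 and 2, all of them in highland pigs. In the windows of EPHX2 and FGFR2 a single animal had a peak (TH in EPHX2 and YH in FGFR2), in that of ERG 1 YH and 1 YL animal, and in those of GRB2 and MAP2K1 none. These 5 windows could not be tested at such numbers, and a difference was not detectable there.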

How the data were processed

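MeDIP-seq was made from heart DNA of 16 pigs, 4 in each group. Trimming was done by the authors with FASTX, mapping to Sscrofa10.2 with Bowtie, and peak calling with MACS. What the authors deposited is 1 peak list for each group, with positions in bp, a count of tags per peak without normalization and a fold enrichment, a ratio over the background of the peak caller. No column names an animal. For 100907 TH peaks, the end was read from a field that joins start and end.

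Peaks over base 250 of 500 bp windows were counted per list and summed over TH and YL (home) and over YH and TL (away). A 2-sided Fisher's exact test was used per window, with Benjamini-Hochberg adjustment over windows with 5 to 11 animals. The mean number of calls was hypergeometric, given the total of each window. P-values cover the spread between these animals only. Intervals cover counting error only. The scripts were tested on simulated data. The named regions were the first 10 per side by difference, then length, then position, and genes were named when a listed window was called, when a window of the 3 gene lists differed by at least 4 animals, or when they were among the key or bisulfite-tested genes of the study. Genes with a called window between their outermost listed windows were also named, which was added after the data were seen. The counts over listed windows leave out 1 gene, which is not reported here. The members and lists were chosen with earlier results of these data known. The totals of uniquely mapped reads were used only to scale the minimum of tags. Reads per window, genomic elements beyond the listed windows and sequences were not analysed here. Tests were run with SciPy 1.17.1 on Python 3.11.15, tables were handled with pandas 2.3.3 and NumPy 2.4.6, and plots were drawn with Matplotlib 3.10.9.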

Additional observations from a re-analysis of the deposited data

Results flagged for a closer look

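Peaks outside chromosomes 1 to 18 entered none of the window counts given in the report, other than as an alternative that added chromosome X, and also held windows that separated home from away animals. On chromosome X, 87 of 4403 tested windows had an exact p under 0.05 (1.98%), 0.889 times the mean given the totals, with 78 higher at home and 9 higher away. On 2418 other sequences, mostly unplaced scaffolds, 225 of 9046 tested windows did so (2.49%), 1.11 times the mean, with 150 higher at home and 75 higher away.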

How the results depend on the processing

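The home side held more called windows than the away side, and the ratio of called windows to the mean stayed above 1, under each alternative run except adjustment of the p-values, which left no call. Counting peaks over any base of a window gave a ratio of 1.32 and Zelen's test 1.38. Keeping only peaks with at least 0.928 tags per M reads mapped uniquely gave a ratio of 1.20 and a home share of 67.3%, and equal numbers of peaks a home share of 59.9%. At p under 0.01 there were 435 home or away calls in place of 4303 (in each of which both breeds again differed), with a home share of 70.3% and a ratio of 1.17. At this limit 2338 windows were called between breeds and 253 between elevations, in place of 11264 and 2526. Adjusted over the testable or over all windows, 0 windows were called by Fisher's exact test. Moving the grid, adding chromosome X and using the first window of each run of equal counts changed none of these results beyond its interval or 1.5 times its count. Of the 20 named regions, 3 lost their call with any base, 1 with the minimum of tags and 0 with equal numbers of peaks. No paired analysis was possible because the peaks carry no animal names, and leaving out each animal in turn was not run for the same reason. With 4 animals per group and presence or absence of a peak as the measure, a difference in the height of peaks could not be seen.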
